A study of Mus musculus with 103 samples.

Results

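The genes described here encode secreted glycoproteins and proteoglycans of the stromal matrix. They were given as a list of 10 symbols (Tnc, Postn, Dcn, Lum, Ogn, Fn1, Sparc, Bgn, Fbn1 and Thbs1), and every probe set annotated to one of them was taken, whatever its level. Of the 10 genes, 8 were named by a probe set, with 12 of the 45141 probe sets on the array, and these 8 are among 17097 genes measured. Fbn1 and Thbs1 were not analysed here. For each gene the probe set with the highest mean over all samples stands for it, and a second probe set is named where it gave another result.

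The data were log2 expression values of 103 mouse samples in 29 groups, 1 Affymetrix array per sample, from a study of lineage tracing and oncogenic targeting in cells that express Prom1, the gene of the membrane protein Prominin1. Cells bound by magnetic beads against Prominin1 were sorted from dissociated organs (40 samples), and primary tumours (56 samples) and metastases (7 samples) were dissected. The question asked of the matrix genes was how their levels differed between sorted cells of different organs, with age and injury in liver, and between tumours and the sorted cells of the same organ. Of the sorted groups, liver gave 3: untreated (n = 5), neonatal (n = 3), and from mice given DDC, which damages liver and bile ducts (n = 9). The other sorted groups were uterus, lung and kidney with 4 samples each, prostate, small intestine and salivary gland with 3 each, and stomach with 2. Tumours of the digestive tract were gastric adenoma (n = 7) and adenocarcinoma (n = 4), and adenoma of small (n = 3) and large (n = 5) intestine. Liver tumours were labelled hepatocellular carcinoma/cholangiocarcinoma (HCC/CC, n = 14) or hepatoblastoma (n = 2). The others were prostatic adenocarcinoma (n = 8), uterine carcinoma (n = 3), bronchopulmonary adenocarcinoma, called lung adenocarcinoma here (n = 2), and the squamous cell carcinomas, which were perineal (n = 4), perioral (n = 3) or periorbital (n = 1). Each metastasis was a single sample: gastric adenocarcinoma in abdomen and in liver, hepatoblastoma in lung, HCC/CC in intestine and in lung, and uterine carcinoma in abdomen and in liver. The labels give no genotype, strain or sex, no age other than neonatal, and no agent other than DDC. Nor do they state whether the samples within a group are different animals. The p-values therefore speak only to the spread among these samples, and that may be technical.

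The extracellular matrix is the network of secreted proteins that fills the space between cells, and fibroblasts, stellate cells and smooth muscle cells are its main producers in most organs. Small leucine-rich proteoglycans (decorin, biglycan, lumican and osteoglycin) bind collagen and control the width of its fibrils. Matricellular proteins (tenascin C, periostin and SPARC) are deposited during growth, wound repair and tumour formation and tune how cells hold to the matrix, whereas fibronectin is a scaffold onto which collagen is assembled and is also a plasma protein made by hepatocytes.

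All sorted cells carry the same label for the sort, but the level of the sorted gene differed widely. Prom1 lay between 2.64 and 4.24 in untreated liver cells, against a filter value of 4.06 for sorted cells (the 40th percentile of their values), and at 3.92 and 3.31 in DDC samples 1 and 2. In kidney, stomach, uterus, prostate, salivary gland and neonatal liver cells each sample was at 9.81 or above. Lung cells lay between 5.3 and 6.79 and small intestine cells between 8.01 and 10.19. Actin signal at the 3' end minus that at the 5' end is a measure that grows as RNA degrades. Among sorted cells it was highest in kidney cells (mean 1.72, samples 1.67 to 1.8) and next in untreated liver cells (1.45, samples 1.05 to 1.73). Its part in the results on these cells was not tested. A level under the filter value is close to array background, and a difference taken against it is a lower bound. All samples are bulk RNA, in which fewer cells of a type and less RNA per cell cannot be told apart.

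Start regions of 3 member genes are shown: Tnc and Postn, the pair with the highest correlation over groups, and Ogn, which was in the pair with the lowest (with Fn1, which had no window). RefSeq windows of 300 bases (250 before and 50 after a RefSeq transcript start, assembly GRCm38.p6) were found for 6 of the 10 listed genes, in 8 windows. Dcn, Lum, Fn1 and Thbs1 had none. The Postn window shown is at a start other than the annotated start of the gene, and so is the only Fbn1 window. Capitals mark a match to a searched motif, read on both strands: the core promoter box TATAAA, the TEAD site GGAATG, the box CCAAT, the AP-1 site TGANTCA and the CArG box, of which the last pair was found in no member window.
Postn, chr3:54360857-54361156, plus strand: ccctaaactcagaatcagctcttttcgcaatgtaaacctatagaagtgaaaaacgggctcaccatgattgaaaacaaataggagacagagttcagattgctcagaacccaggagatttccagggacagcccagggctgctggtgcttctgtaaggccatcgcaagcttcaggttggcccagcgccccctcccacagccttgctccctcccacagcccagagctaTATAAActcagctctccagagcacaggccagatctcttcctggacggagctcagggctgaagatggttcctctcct
Tnc, chr4:64046966-64047265, minus strand: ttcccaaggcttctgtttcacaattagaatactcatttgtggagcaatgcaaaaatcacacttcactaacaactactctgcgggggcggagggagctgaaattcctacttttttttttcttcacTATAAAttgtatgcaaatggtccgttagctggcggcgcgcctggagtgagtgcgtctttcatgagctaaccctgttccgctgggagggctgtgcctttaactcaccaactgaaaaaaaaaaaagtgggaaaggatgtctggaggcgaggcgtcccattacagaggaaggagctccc
Ogn, chr13:49607765-49608064, plus strand: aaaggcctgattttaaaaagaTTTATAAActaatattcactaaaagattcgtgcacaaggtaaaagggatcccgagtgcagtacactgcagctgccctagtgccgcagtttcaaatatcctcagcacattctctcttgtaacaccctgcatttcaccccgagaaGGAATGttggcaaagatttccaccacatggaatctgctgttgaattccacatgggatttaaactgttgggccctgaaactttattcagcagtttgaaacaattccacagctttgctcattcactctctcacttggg

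The Postn match to TATAAA begins at position -26 from that start, the Tnc match at position -126, and the Ogn window holds overlapping matches on both strands at -229 and -227 and a GGAATG at -86. Of all 32851 windows of this length, 13.6% hold TATAAA, 14.7% GGAATG, 37.4% CCAAT, 7.81% TGANTCA and 1.63% a CArG box. A second Tnc window, from a start further downstream, overlaps this one and holds the same TATAAA at position -205 from its own start, and the window at the annotated Postn start (chr3:54359017-54359316) holds no TATAAA but a CCAAT on the minus strand at position 24. The windows of Sparc, Bgn and Fbn1 hold none of these motifs. GC content was 53% in the Postn window, 47.3% in that of Tnc and 42.3% in that of Ogn, against a median of 52.7% over all windows. A match is a run of letters and not evidence of binding.

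Over the 21 groups with at least 2 samples, each gene had its own order of levels. Among the proteoglycans, decorin (Dcn) was highest in uterus cells (12.23 ± 0.3, SD, n = 4), followed by prostatic adenocarcinoma (11.84 ± 0.64, n = 8), and lowest in kidney cells (2.95). Biglycan (Bgn) was highest in lung adenocarcinoma (12.34 ± 0.09, n = 2) and prostatic adenocarcinoma (11.48 ± 1.02), and lowest in kidney cells (4.75). Lumican (Lum) was highest in uterus cells (11.01 ± 0.4) and uterine carcinoma (9.86 ± 2.43, n = 3), and lowest in small intestine cells (3.54). Osteoglycin (Ogn) was highest in lung cells (10.38 ± 1.31, n = 4) and uterus cells (9.81 ± 0.61), and lowest in untreated liver cells (2.77). The leading groups of these 4 genes were thus either sorted uterus and lung cells or carcinomas of lung, prostate and uterus, and the lowest were kidney, small intestine and liver cells.

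Of the matricellular genes, Tnc and Postn led in another group, whereas Sparc shared its leading group with Bgn. Tenascin C (Tnc) was highest in perioral squamous cell carcinoma (9.54 ± 0.29, n = 3) and gastric adenocarcinoma (9.46 ± 0.44, n = 4), and near background in untreated and DDC liver cells (2.82 and 2.98). Periostin (Postn) was highest in perioral squamous cell carcinoma (11.21 ± 0.49) and uterine carcinoma (10.72 ± 1.4), and lowest in small intestine cells (3.43). Sparc was highest in lung adenocarcinoma (11.87 ± 0.22) and uterine carcinoma (11.83 ± 0.92), and lowest in small intestine cells (3.96). Fibronectin (Fn1) was highest in sorted neonatal liver cells (12.54 ± 0.1, n = 3) and gastric adenocarcinoma (12.32 ± 0.48), and lowest in kidney cells (3.77). In neonatal liver cells, the group with the highest Fn1 mean, the 9 hepatocyte markers had a mean of 11.89 and 10 of 14 fibroblast and stellate cell markers lay under the filter value. The part of these cell types in the Fn1 level was not tested. The highest single Fn1 values were in HCC/CC 3 (13.04), lung cells 4 (12.88) and gastric adenocarcinoma 2 (12.83). The second Tnc probe set lay under the filter, and was not tested, in several comparisons in which the first was called: liver, salivary gland and uterus cells, HCC/CC, gastric adenoma and small intestinal adenoma. Its means there were 2.66 in HCC/CC and 2.96 in untreated liver cells, 2.87 in gastric adenoma and 2.5 in stomach cells, and 2.9 in small intestinal adenoma and 2.76 in small intestine cells, so it did not show the differences of the first.

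Most neighbours in these orders did not differ beyond their spread. Of 20 neighbouring pairs of groups per gene, the ranges of the samples did not overlap in 3 for Dcn and Sparc, 2 for Bgn and Fn1, 1 for Lum, Ogn and Tnc and 0 for Postn. The widest such gaps were for Fn1 from prostate to salivary gland cells (2.56) and for Dcn from small intestine to kidney cells (2.31) and from salivary gland to neonatal liver cells (2.24).

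**Figure D1:**
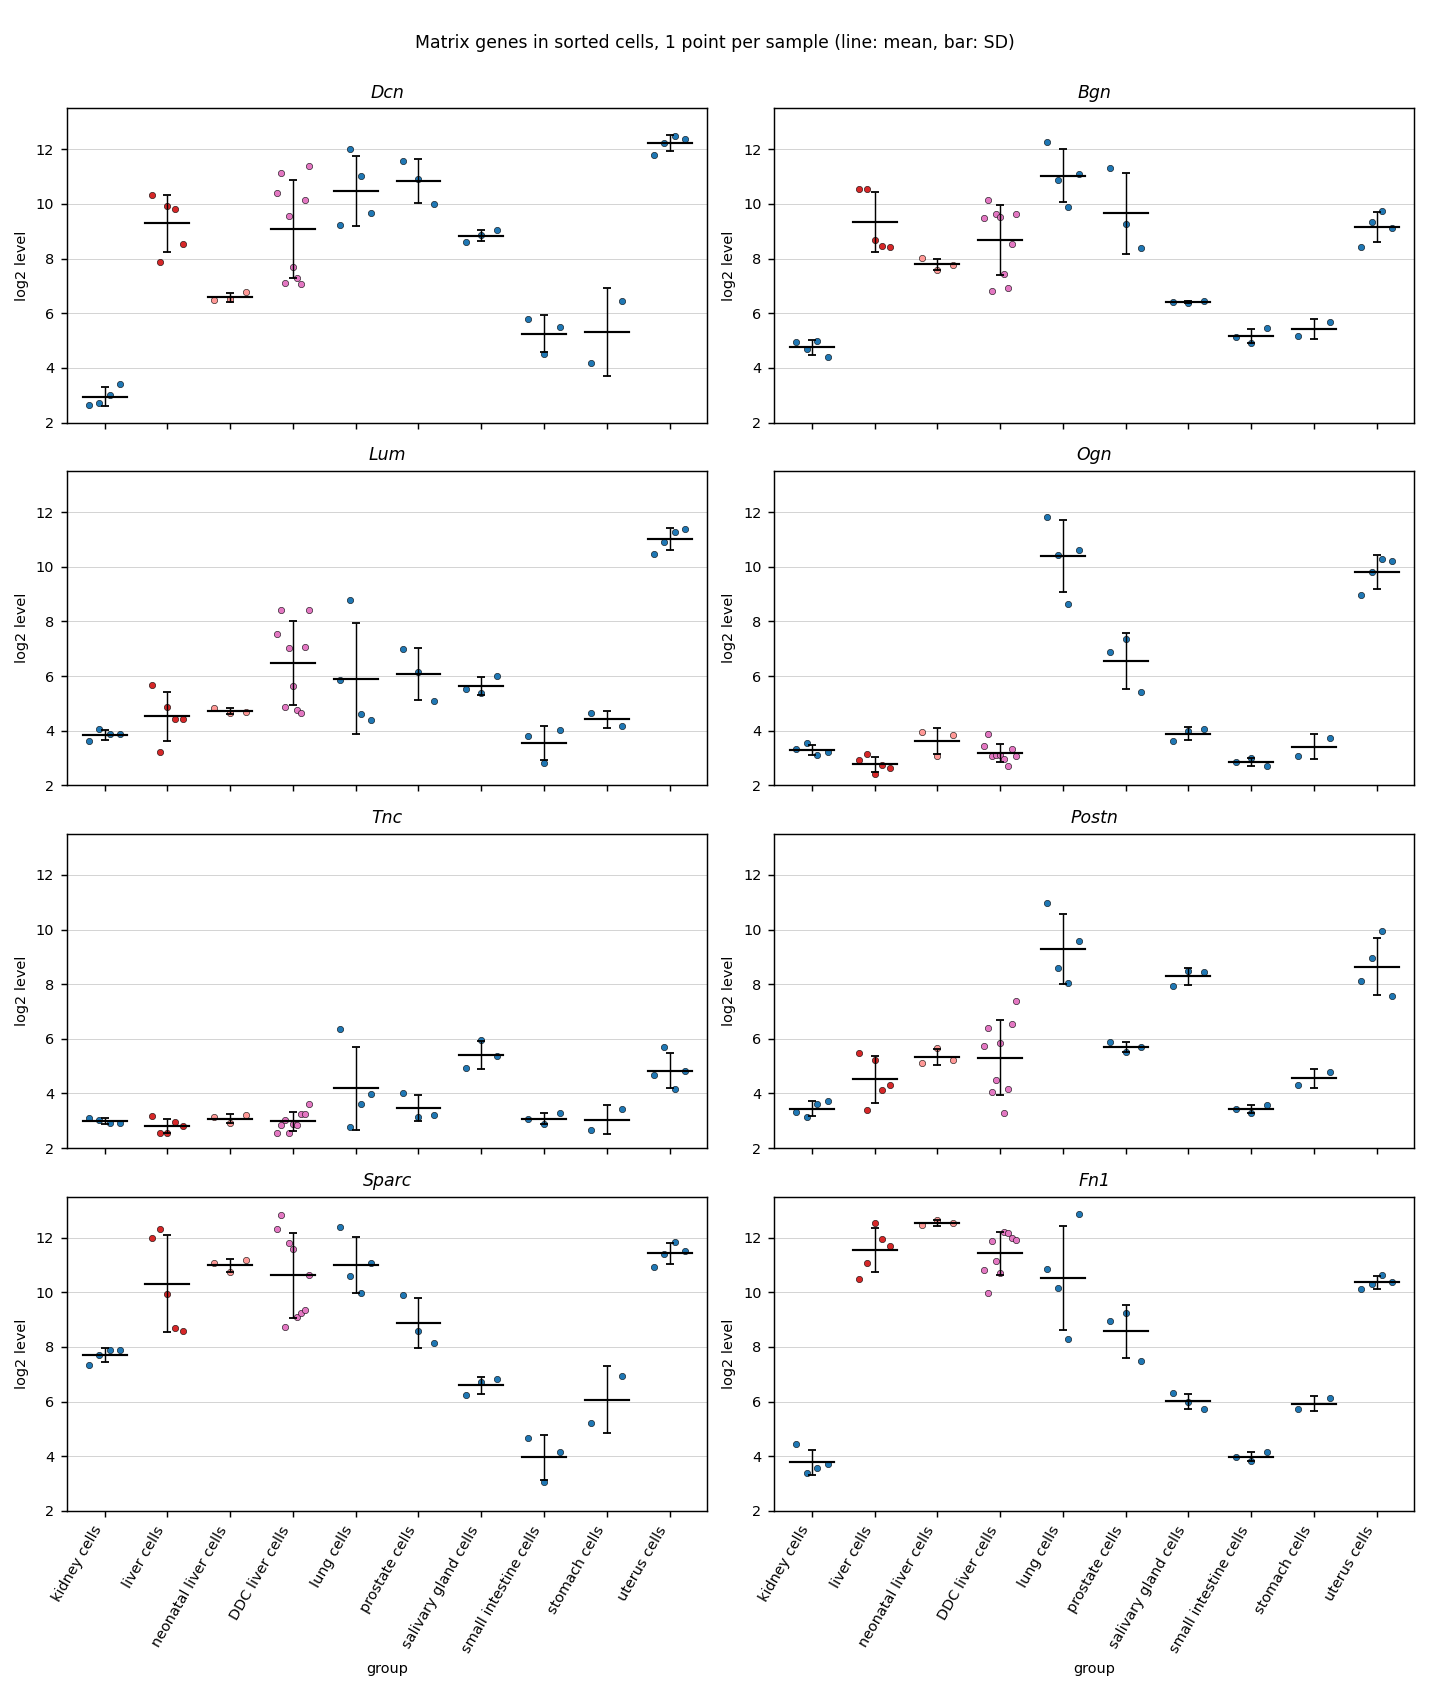
Log2 level (y axis) of the 8 genes in the 10 groups of sorted cells (x axis), 1 point per sample, with the group mean as a line and the SD as a bar. Lum and Dcn stand highest in uterus cells, Ogn in lung and uterus cells and Fn1 in the 3 groups of liver cells. Kidney and small intestine cells lie low, though Sparc in kidney cells lies above salivary gland, stomach and small intestine cells.

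Sorted uterus cells held more matrix RNA than the mean of the other 7 organs for all 8 genes. All 8 passed the test used throughout (limma, adjusted p under 0.05 and a log2 difference of at least 1), where 15.3% of all tested genes were called higher and 7.38% lower, and the median difference of the members was 3.41 against 0.08 for all genes. Lum was 10.48, 10.91, 11.27 and 11.37 in the uterus samples. No sample of another organ reached these values, and the difference was 6.15 ± 0.58 (SE), or 71.2-fold, with an adjusted p of 1.3e-10. Dcn was 11.8, 12.23, 12.5 and 12.38 and overlapped with samples of other organs. Its difference was 4.66 (25.3-fold), that of Ogn 5.07 (33.6-fold) and that of Bgn 1.77 (3.4-fold). Among the other 4, Sparc rose by 3.64, Fn1 by 3.17, Postn by 3.04 and Tnc by 1.27, and the Tnc call was lost without uterus sample 2 (0.98) and with the mean of its probe sets (0.56). The 14 fibroblast and stellate cell markers had a mean of 7.08 in uterus cells (samples 6.61 to 7.43, 1 marker under the filter value) against 3.44 to 5.97 in the other organs, and the 12 macrophage markers a mean of 9.65 (9.53 to 9.88). Their part in the result was not tested.

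Sorted lung cells were high in 6 of the 8 genes, where 12.8% of all genes were called higher and 18.6% lower, with a median member difference of 3.26 against -0.23 for all genes. Ogn was 11.82, 10.44, 8.64 and 10.63. The lowest of these lay under the lowest uterus value, 8.96, and above the samples of the other organs. The difference was 5.73 ± 0.31 (53-fold, adjusted p = 2.4e-16). Bgn rose by 3.9, Postn by 3.79, Fn1 by 3.37, Sparc by 3.15 and Dcn by 2.67, and Lum (0.33) and Tnc (0.52) did not pass. Lum was 5.87, 8.77, 4.6 and 4.39, so that 1 of the 4 samples stood well above the others. Endothelial markers were high in these cells, with a mean of 8.78 (samples 7.39 to 10.83, none of 10 under the filter value), and their part in the result was not tested.

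Kidney and small intestine cells were low. In kidney, 6 genes fell and 0 rose, where 17.2% of all genes fell and 16.3% rose, with a median member difference of -2.63 against -0.11. Dcn was 2.66, 2.7, 3.02 and 3.43 in kidney cells, all under every sample of the other organs, and its difference was -5.94 ± 0.59 (61.5-fold lower, adjusted p = 1.9e-10). Fn1 fell by 4.36, Bgn by 3.28, Postn by 2.9, Ogn by 2.36 and Lum by 2.01. Sparc was at 7.33, 7.69, 7.88 and 7.88, well above the filter value, and its difference of -0.63 did not pass, nor did that of Tnc (-0.84). Of the 14 fibroblast markers, 12 lay under the filter value in kidney cells.

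In small intestine cells, 7 genes fell and 0 rose, where 15.1% of all genes fell and 14.3% rose, with a median of -2.9 against 0.03. Sparc was 4.66, 3.07 and 4.14, under every sample of the other organs, and differed by -4.9 ± 0.67 (29.8-fold lower, adjusted p = 2.7e-07). Sparc thus lay lower in small intestine than in kidney cells, which were themselves under every liver, lung, prostate and uterus sample. Kidney and small intestine cells were not tested against each other. Fn1 fell by 4.12, Dcn by 3.31, Postn by 2.92, Ogn by 2.89, Bgn by 2.8 and Lum by 2.37, and Tnc (-0.75) did not pass. Basement membrane collagens Col4a1 and Col4a2 fell there too, by 4.7 and 3.39. Fibroblast markers (11 of 14) and endothelial markers (8 of 10) mostly lay under the filter value.

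Stomach cells, with 2 samples, were lower in 5 genes, where 10% of all genes fell and 9.08% rose. Ogn (3.09 and 3.73) fell by 2.24 and kept its call with each sample left out. The calls of Dcn (-3.24), Bgn (-2.5), Sparc (-2.49) and Fn1 (-1.9) were lost without stomach sample 1, at -2.11, -2.24, -1.62 and -1.7, and that of Fn1 also without stomach sample 2 (-2.1). Postn (-1.64, adjusted p = 0.067) did not pass and was called without lung sample 3 (-1.7). Dcn differed most between the 2 samples, at 4.18 and 6.45. With a stomach sample left out, the lone sample is assumed to vary like the other groups. The second probe sets of Ogn (-1.14) and Sparc (-2.22) were not called.

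Untreated liver cells split the genes, with 4 higher and 4 lower, where 10.1% of all genes rose and 18.2% fell. Fn1 was 10.49, 11.08, 12.55, 11.96 and 11.71, above all samples of kidney, prostate, salivary gland, small intestine and stomach cells, and differed by 4.54 ± 0.4 (23.2-fold, adjusted p = 9e-12). Sparc rose by 2.37 (1.3 with array weights) and Bgn by 1.96, but the samples were uneven. Sparc was 12 and 12.33 in liver samples 1 and 2 and 9.95, 8.71 and 8.58 in the other samples, and Bgn was 10.53 and 10.55 against 8.67, 8.48 and 8.44. Endothelial markers ranged from 5.59 to 9.67 over these samples, and their part was not tested. Ogn fell by 2.97 and Postn by 1.68. The calls of Dcn (1.31), Lum (-1.25) and Tnc (-1.04) were lost without any of several samples. Dcn lost it without liver samples 1, 3 or 4, prostate sample 3, small intestine sample 2 or stomach sample 1 (1.05 to 1.25). Lum lost it without liver samples 2 to 5, prostate sample 1, salivary gland sample 3, small intestine samples 1 or 3, stomach sample 1 or uterus sample 4 (-0.93 to -1.34). Tnc lost it without liver samples 2 or 3, lung sample 1 or stomach sample 2 (-0.94 to -0.99). Other settings ended these calls too: array weights for Dcn (1.3), no filter for Lum (-1.25) and the mean of probe sets for Tnc (-0.45).

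Prostate and salivary gland cells were intermediate. In prostate cells 3 genes rose, where 10.4% of all genes did and 7.26% fell. Dcn was 11.59, 10.91 and 9.99 and rose by 3.06 ± 0.67 (8.35-fold). Bgn rose by 2.33 and Ogn by 1.35, but the Bgn call was lost without prostate sample 1 (1.5, adjusted p = 0.085) and that of Ogn without prostate sample 2 (0.94). The second Ogn probe set showed a difference of 0.00. Fn1 (1.12, adjusted p = 0.085) did not pass and was called without lung sample 4 (1.23) or prostate sample 3 (1.66).

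In salivary gland cells 2 genes rose and 3 fell, where 10.9% and 9.57% of all genes did. Both genes that rose were matricellular. Postn was 7.93, 8.49 and 8.43 (2.63 ± 0.56, 6.19-fold) and Tnc 4.94, 5.95 and 5.37 (1.93 ± 0.35, 3.82-fold), each overlapping with other organs. Fn1 fell by 1.81 and Ogn by 1.68. Sparc fell by 1.88, a call lost without any of the salivary gland samples (-1.7 to -1.99). The mean of probe sets gave 1.22 for Tnc. Bgn (-1.38, adjusted p = 0.051) was called without liver samples 3, 4 or 5, lung sample 3, prostate sample 3 or uterus sample 1 (-1.4 to -1.46), and its second probe set was called (-2.16).

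Within liver, 1 proteoglycan differed between neonatal and untreated cells and another between DDC and untreated cells. Prom1 lay between 10.23 and 10.38 in neonatal, 2.64 and 4.24 in untreated and 3.31 and 9.31 in DDC cells. The part of this unequal Prom1 level in these comparisons was not tested. The actin 3' minus 5' difference was 1.45 in untreated, 0.8 in neonatal and 1 in DDC cells (0.87 in HCC/CC), and its part in the comparisons with untreated cells was not tested. Neonatal cells were lower in Dcn alone of the 6 genes tested (Ogn and Tnc were under the filter), where 8.63% of all genes fell and 22% rose. Dcn was 6.47, 6.53 and 6.78 in neonatal cells and 10.34, 7.86, 9.91, 9.81 and 8.55 in untreated cells. The samples did not overlap, and the difference was -2.7 ± 0.8 (6.49-fold lower, adjusted p = 0.0066). Bgn (8.01, 7.58 and 7.77) also lay under every untreated sample, but its difference of -1.54 missed the threshold (adjusted p = 0.056), and it was called without liver samples 3, 4 or 5 (-1.71 to -1.77) and by its second probe set (-1.92). Fn1 was 12.45, 12.64 and 12.53 and differed by 0.98 (adjusted p = 0.17). Sparc differed by 0.68 and was called with array weights (1.89).

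After DDC, Lum was higher than in untreated cells, the 1 gene of 6 that passed, where 16.2% of all genes rose and 5.49% fell. It was between 4.66 and 8.42 in the 9 DDC samples (median 7.04) and 5.68, 3.22, 4.88, 4.43 and 4.42 in untreated cells. The groups overlapped, the difference was 1.96 ± 0.59 (3.89-fold, adjusted p = 0.0083), and it passed with each sample left out but not with array weights (0.92, adjusted p = 0.23). Dcn (-0.21), Bgn (-0.65), Sparc (0.31), Fn1 (-0.13) and Postn (0.8) did not pass. Against neonatal cells, DDC cells were higher in Dcn, by 2.49 ± 0.73 (adjusted p = 0.015), where 4.36% of all genes rose and 8.15% fell. This call was lost without any of the neonatal samples (2.43 to 2.58, adjusted p up to 0.07), and Lum (1.77) was called there without DDC samples 3, 6 or 7 (1.97 to 2). With array weights the Dcn difference was 1.37, and Sparc was called (-1.62, against -0.37 without). These 3 liver comparisons share their groups and are not independent.

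The DDC samples were widely spread in most of these genes. Samples 3, 6 and 7 had Prom1 at 9.27, 9.24 and 9.31 and held the lowest Dcn (7.1, 7.3 and 7.07), Bgn (6.83, 7.44 and 6.93) and Lum (4.86, 4.74 and 4.66). Samples 1 and 2 had Prom1 at 3.92 and 3.31 and held Dcn at 10.39 and 11.12, Lum at 7.55 and 8.41 and the highest Sparc, 12.32 and 12.84. Fn1 was lowest in sample 2 (9.99) and highest in samples 6 and 7 (12.2 and 12.18). The highest Dcn (11.38), Lum (8.42) and Postn (7.38) were in sample 9, with Prom1 at 6.1. Sample 4 had Prom1 at 8.28 with Dcn at 9.57, Bgn at 9.63, Lum at 7.04 and Sparc at 11.8, each above samples 3, 6 and 7. The Prom1 values were unevenly spread, with a gap between 3.92 and 6.1 and samples 3, 6 and 7 close together. No correlation is given. The actin 3' minus 5' difference moved along, at 1.29, 1.39 and 1.38 in samples 3, 6 and 7 and 0.54 in samples 1 and 2, and its part was not tested.

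**Figure D2:**
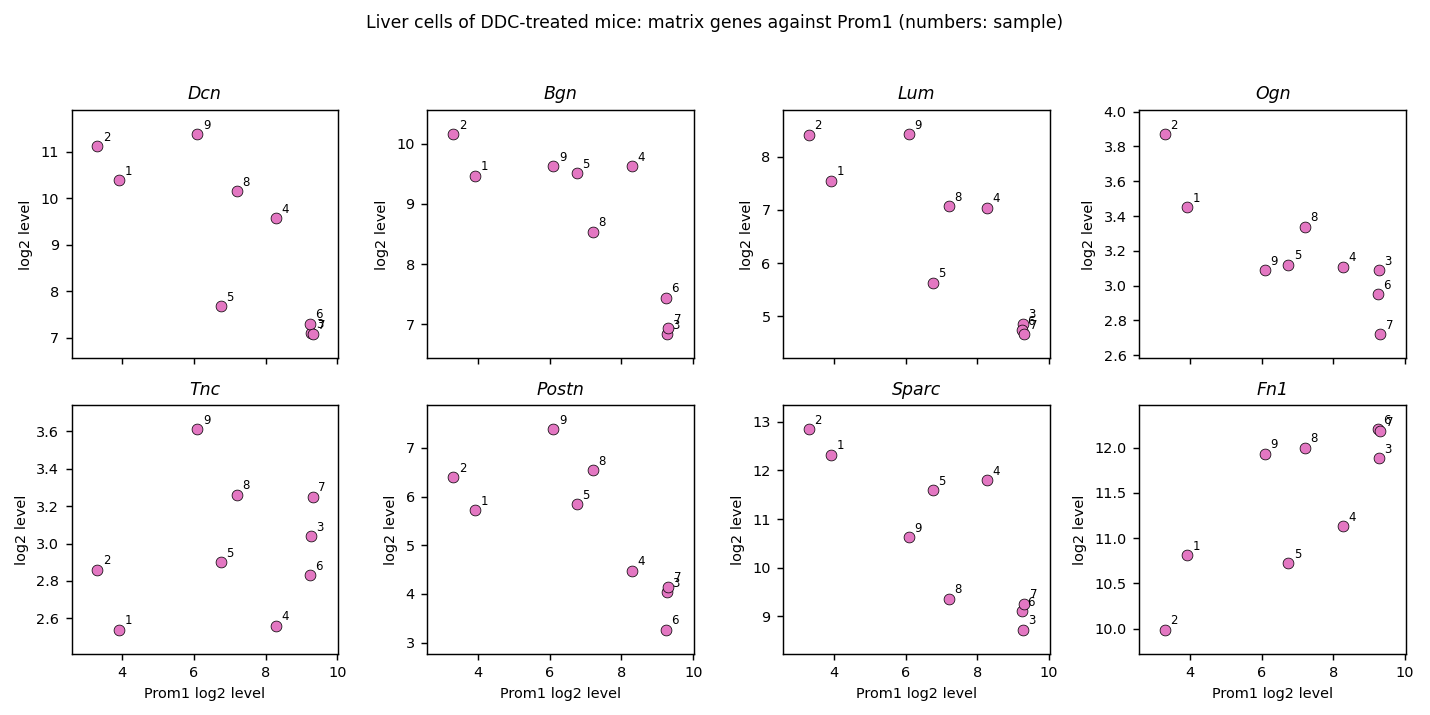
Log2 level of each gene (y axis) against that of Prom1 (x axis) in the 9 samples of DDC liver cells, numbered by sample, with a scale of its own for each gene. Samples 3, 6 and 7 are the lowest 3 for Dcn, Bgn, Lum, Postn and Sparc, whereas Fn1 is lowest in sample 2.

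Tumours were then set against the sorted cells of their organ. Tumours were dissected and extracted with one RNA kit and sorted cells with another, so tumour, tissue handling and kit cannot be told apart in these comparisons. Gastric adenoma and gastric adenocarcinoma share the same 2 stomach samples, and HCC/CC is set against both untreated and DDC liver cells.

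**Figure D3:**
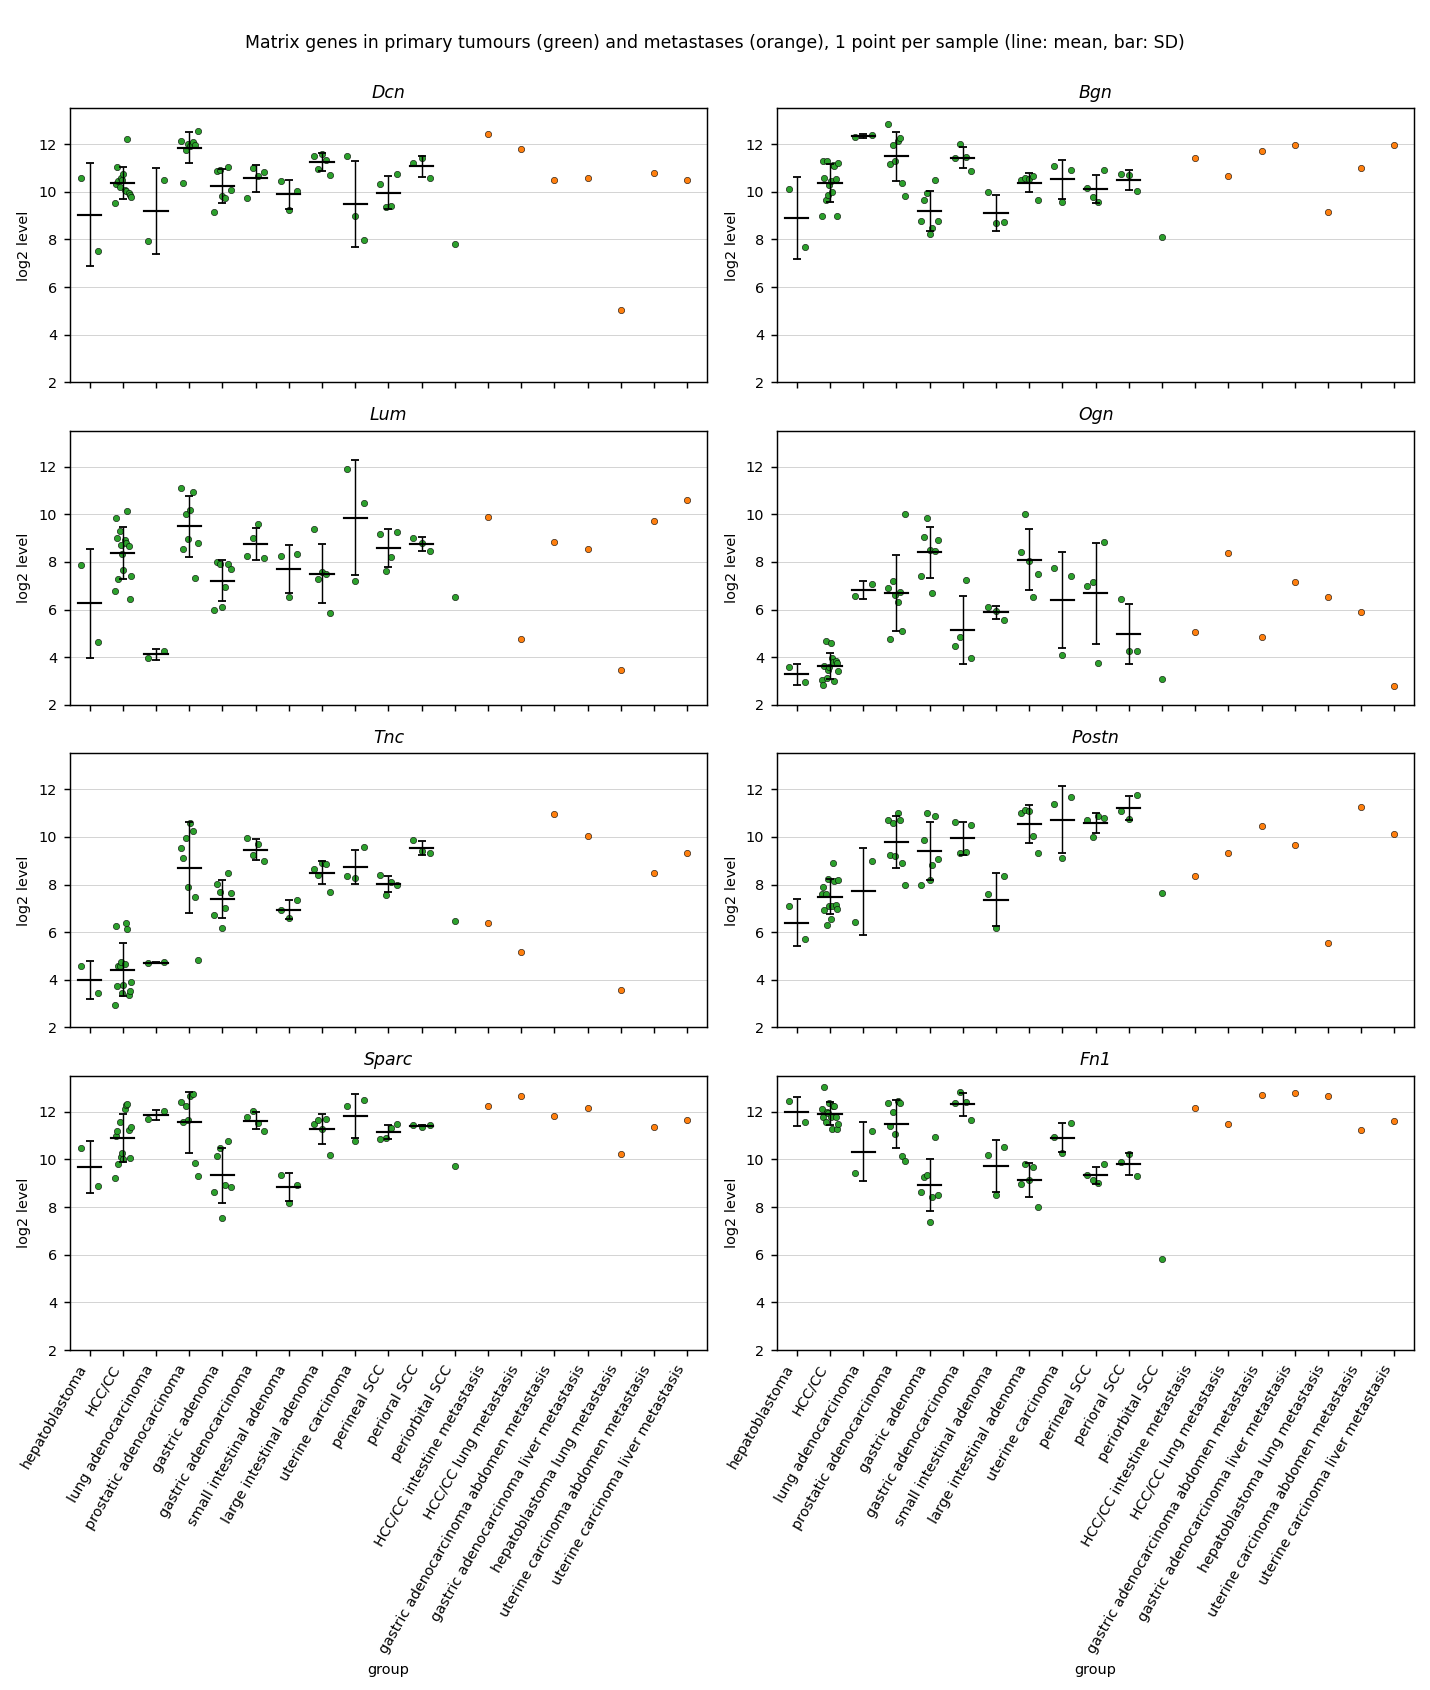
Log2 level (y axis) of the 8 genes in primary tumours and metastases (x axis), 1 point per sample, with the group mean as a line and the SD as a bar. Levels differ widely between tumour types for Tnc, Ogn and Lum, with Tnc between 2.95 and 6.37 and Ogn at most 4.68 in HCC/CC, whereas Fn1, Sparc, Bgn and Dcn are high in most tumours.

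Gastric adenocarcinoma held more of 7 genes than stomach cells, where 17.9% of all genes rose and 10.5% fell, with a median member difference of 5.48 against 0.18 for all genes. Tnc was 9.96, 9.24, 9.68 and 8.97 in the tumours and 2.66 and 3.42 in stomach cells. The groups lay far apart, and the difference was 6.42 ± 0.39 (85.6-fold, adjusted p = 5e-05). The second Tnc probe set lay closer, with means of 4.86 in the tumours and 2.5 in stomach cells. Fn1 was 12.38, 12.83, 12.39 and 11.67 against 5.73 and 6.13, a difference of 6.39 ± 0.32 (83.9-fold, adjusted p = 2.3e-05). Among the proteoglycans, Bgn rose by 6 (63.9-fold), Dcn by 5.24 and Lum by 4.34, and Sparc rose by 5.56 and Postn by 5.39. Ogn was the exception. It was 4.48, 4.87, 7.24 and 3.98 against 3.09 and 3.73 and differed by 1.73 (adjusted p = 0.14). The 7 calls were kept with each sample left out, although with 1 stomach sample left the spread comes from the 4 tumours alone.

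Gastric adenoma was higher in all 8 genes, where 8.07% of all genes rose and 3.07% fell, with a median of 4.06 against 0.11. For none of the 8 genes did samples overlap with stomach cells, a count not made for all genes. Ogn was between 6.68 and 9.86 (median 8.5) and rose by 5.01 ± 0.69 (32.1-fold). Dcn rose by 4.92, Postn by 4.85, Tnc by 4.35 and Bgn by 3.76. The calls of Sparc (3.27), Fn1 (3) and Lum (2.8) were lost when 1 stomach sample was left out: Sparc without sample 1 (2.4; also with array weights, 3.42), Fn1 without sample 1 or 2 (2.8 and 3.2) and Lum without sample 2 (2.58). The spread then comes from the adenomas alone. The mean of probe sets gave 2.36 for Tnc. Smooth muscle markers (6 genes) had a mean of 6.47 in adenomas against 3.9 in stomach cells, and their part was not tested.

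The step from adenoma to adenocarcinoma was tested directly among tumours. Carcinomas were higher in 4 genes and lower in 1, where 13.7% of all genes rose and 11.4% fell. Fn1 was at least 11.67 in the carcinomas and at most 10.94 in the adenomas, and differed by 3.39 ± 0.46 (10.5-fold, adjusted p = 9.1e-08). Sparc rose by 2.3, Bgn by 2.24 and Tnc by 2.07. Ogn was lower in carcinoma by 3.27 ± 0.75 on the log2 scale (9.65-fold, adjusted p = 0.0004), although carcinoma 3 (7.24) lay within the range of the adenomas. Dcn (0.32), Postn (0.54) and Lum (1.54) did not pass. All 5 calls were kept with each sample left out.

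Small intestinal adenoma held more of all 8 genes than small intestine cells, where 13.6% of all genes rose and 8.43% fell, with a median of 4.06 against 0.12. Fn1 was 10.17, 8.49 and 10.52 in adenomas and 3.96, 3.84 and 4.15 in sorted cells, a difference of 5.74 ± 0.5 (53.5-fold, adjusted p = 0.0007). Sparc rose by 4.87, Dcn by 4.65, Lum by 4.17, Bgn by 3.96, Postn by 3.94, Tnc by 3.88 and Ogn by 3.04. No member overlapped between the groups, a count not made for all genes, and all 8 calls were kept with each sample left out. The mean of probe sets gave 2.01 for Tnc. The smooth muscle markers were at 7.74 in adenomas (samples 7.52 to 7.86) against 3.67 in sorted cells, where 5 of the 6 lay under the filter value, and their part was not tested.

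Large intestinal adenoma, for which no sorted cells were measured, was set against small intestinal adenoma. Postn was 10.99, 11.13, 11.1, 10.05 and 9.34 against 7.59, 6.16 and 8.36 and was higher by 3.15 ± 0.67 (8.89-fold, adjusted p = 0.00082). Sparc was higher by 2.44 ± 0.66 (5.43-fold), and these were the 2 of 8 that passed, where 6.6% of all genes rose and 6.32% fell. Ogn (8.41, 10.01, 8.02, 6.53 and 7.49 against 6.13, 5.95 and 5.58) did not overlap either and differed by 2.21 (adjusted p = 0.062), and was called without large intestinal adenoma 4 (2.6). Fn1 (-0.6) and Lum (-0.2) did not pass.

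Prostatic adenocarcinoma was higher in 6 genes than prostate cells, where 12.4% of all genes rose and 8.69% fell, with a median of 2.78 against 0.14. Tnc was between 4.82 and 10.57 (median 9.34) in the 8 tumours and 4, 3.14 and 3.23 in sorted cells. The groups did not overlap, and the difference was 5.25 ± 1.01 (38-fold, adjusted p = 0.0022), but the second Tnc probe set gave 1.3 and did not pass, and the mean of both was 3.27. Postn rose by 4.08, Lum by 3.41, Fn1 by 2.9 and Sparc by 2.67. Tumours 7 and 8 stood apart from the other 6, with Sparc at 9.85 and 9.3 against at least 11.56, and tumour 8 had the lowest Tnc (4.82) and the highest Ogn (10). The Sparc call was lost without prostate sample 2 (2.52) or 3 (2.3). The call of Bgn (1.83, adjusted p = 0.049) was lost without any of tumours 1 to 6 or without prostate sample 2 or 3 (1.2 to 1.87), and also with no filter (1.83), median centring (1.74) or the mean of probe sets (1.98), and in the second probe set (2.13). Dcn (1.01, adjusted p = 0.066) was called without tumour 2 (1.23) or prostate sample 1 (1.4), and Ogn differed by 0.15.

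HCC/CC was higher than untreated liver cells in 4 of 7 genes tested, where 17.4% of all genes rose and 6.23% fell, with a median of 1.08 against 0.3. Lum was between 6.46 and 10.12 (median 8.69) and lay above all 5 untreated samples, and differed by 3.86 ± 0.52 (14.5-fold, adjusted p = 1.9e-05). Postn was between 6.31 and 8.89 (median 7.38) against 5.49, 3.39, 5.23, 4.14 and 4.32, a difference of 2.97 ± 0.38 (7.83-fold, adjusted p = 1.2e-05). Tnc rose by 1.61, with 14 tumours between 2.95 and 6.37. Dcn rose by 1.08, a call lost without liver sample 2 (0.72), liver sample 5 (0.89) or HCC/CC 11 (0.94), with array weights (0.93), with all samples in the fit (1.08) and after quantile normalization (0.83). Bgn (1.05, adjusted p = 0.055) did not pass and was called without HCC/CC 1, 4 or 13 or liver sample 1 or 2 (1.1 to 1.35). Fn1 (0.36) and Sparc (0.58) did not pass. With array weights Sparc was 1.69 (adjusted p = 0.01) and Bgn 1.67, and both were called. Ogn stayed at or under 4.68 in all 14 tumours and was not tested.

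Against DDC liver cells, HCC/CC was higher in 4 of 7 genes, where 5% of all genes rose and 4.99% fell. Postn differed by 2.17 ± 0.42 (adjusted p = 0.0007), Lum by 1.89, Bgn by 1.7 and Tnc by 1.44, and the samples of the groups overlapped for each. Dcn (1.29, adjusted p = 0.052) was called without HCC/CC 1 or DDC samples 1, 2, 8 or 9 (1.35 to 1.57). Array weights moved Bgn to 2.63, and Dcn (2.16) and Sparc (1.36, against 0.27 without weights) were called with them. The fibroblast and stellate cell markers had a mean of 5.59 in HCC/CC (samples 4.7 to 6.54, 4 of 14 under the filter value), 4.58 in untreated and 4.63 in DDC liver cells, and their part was not tested.

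Hepatoblastoma had only 2 samples, and they differed. Dcn was 10.56 and 7.52, Bgn 10.11 and 7.69 and Lum 7.87 and 4.65. Against neonatal liver cells limma called 0 of 6 genes (2 at an unadjusted p under 0.05), where 4.87% of all genes rose and 7.55% fell. Without hepatoblastoma 2, Dcn (3.96), Lum (3.15), Bgn (2.32) and Postn (1.75) were called, without hepatoblastoma 1 Sparc was (-2.09). With 1 hepatoblastoma the spread comes from the 3 neonatal samples alone, with the lone tumour assumed to vary like them. Dcn (2.44) was called with all samples in the fit. Against HCC/CC limma called 0 of 7 (3 at an unadjusted p under 0.05), where 3.27% of all genes rose and 2.82% fell, and Lum (-3.73), Dcn (-2.85) and Bgn (-2.69) were called without hepatoblastoma 1, the lone sample being assumed to vary like the other tumours.

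Uterine carcinoma moved the genes in both directions, 2 higher and 2 lower, where 8.57% of all genes rose and 10.1% fell. Tnc was 8.35, 8.27 and 9.57 against 4.66, 5.71, 4.16 and 4.83 in uterus cells, a difference of 3.89 ± 0.43 (14.8-fold, adjusted p = 0.00088) kept with each sample left out, and 2.48 with the mean of probe sets. Ogn was 7.73, 4.09 and 7.43 against 8.96, 9.79, 10.29 and 10.2, lower by 3.39 ± 0.83 on the log2 scale, and Dcn was lower by 2.73 ± 0.71. Neither overlapped between the groups. The Ogn call was lost without uterus sample 3 (-3.23, adjusted p = 0.052) and its value was -2.23 without carcinoma 2, and that of Dcn without carcinoma 2 or 3 or uterus samples 2, 3 or 4 (-1.98 to -2.73). Bgn rose by 1.35, a call lost without carcinoma 1 or 3 or uterus samples 1, 2 or 4 (1.07 to 1.42), and with 5 other settings (1.21 to 1.35), which were array weights, median centring, no filter, the mean of probe sets and all samples in the fit. The second Bgn probe set (1.34) was not called. Postn (2.08, adjusted p = 0.061) was called without carcinoma 2 (2.88) or uterus sample 3 (2.52). Lum was 11.92, 7.18 and 10.49, so that carcinoma 2 lay far under the others, and it differed by -1.14 (adjusted p = 0.38).

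Lung adenocarcinoma (n = 2) was lower in 1 gene, where 2.38% of all genes fell and 5.73% rose. Ogn was 6.56 and 7.08 against 11.82, 10.44, 8.64 and 10.63 in lung cells. The groups did not overlap, and the difference was -3.56 ± 0.73 (11.8-fold lower, adjusted p = 0.012), lost without either tumour (-3.3 and -3.82), when the spread comes from the lung cells alone. Bgn (12.28 and 12.4) lay above all lung cell samples and differed by 1.31 (adjusted p = 0.14), and both Bgn (1.72) and Sparc (1.33) were called without lung sample 1. Lum, at 3.96 and 4.28, was near background in these tumours, and its difference of -1.79 did not pass.

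**Figure D4:**
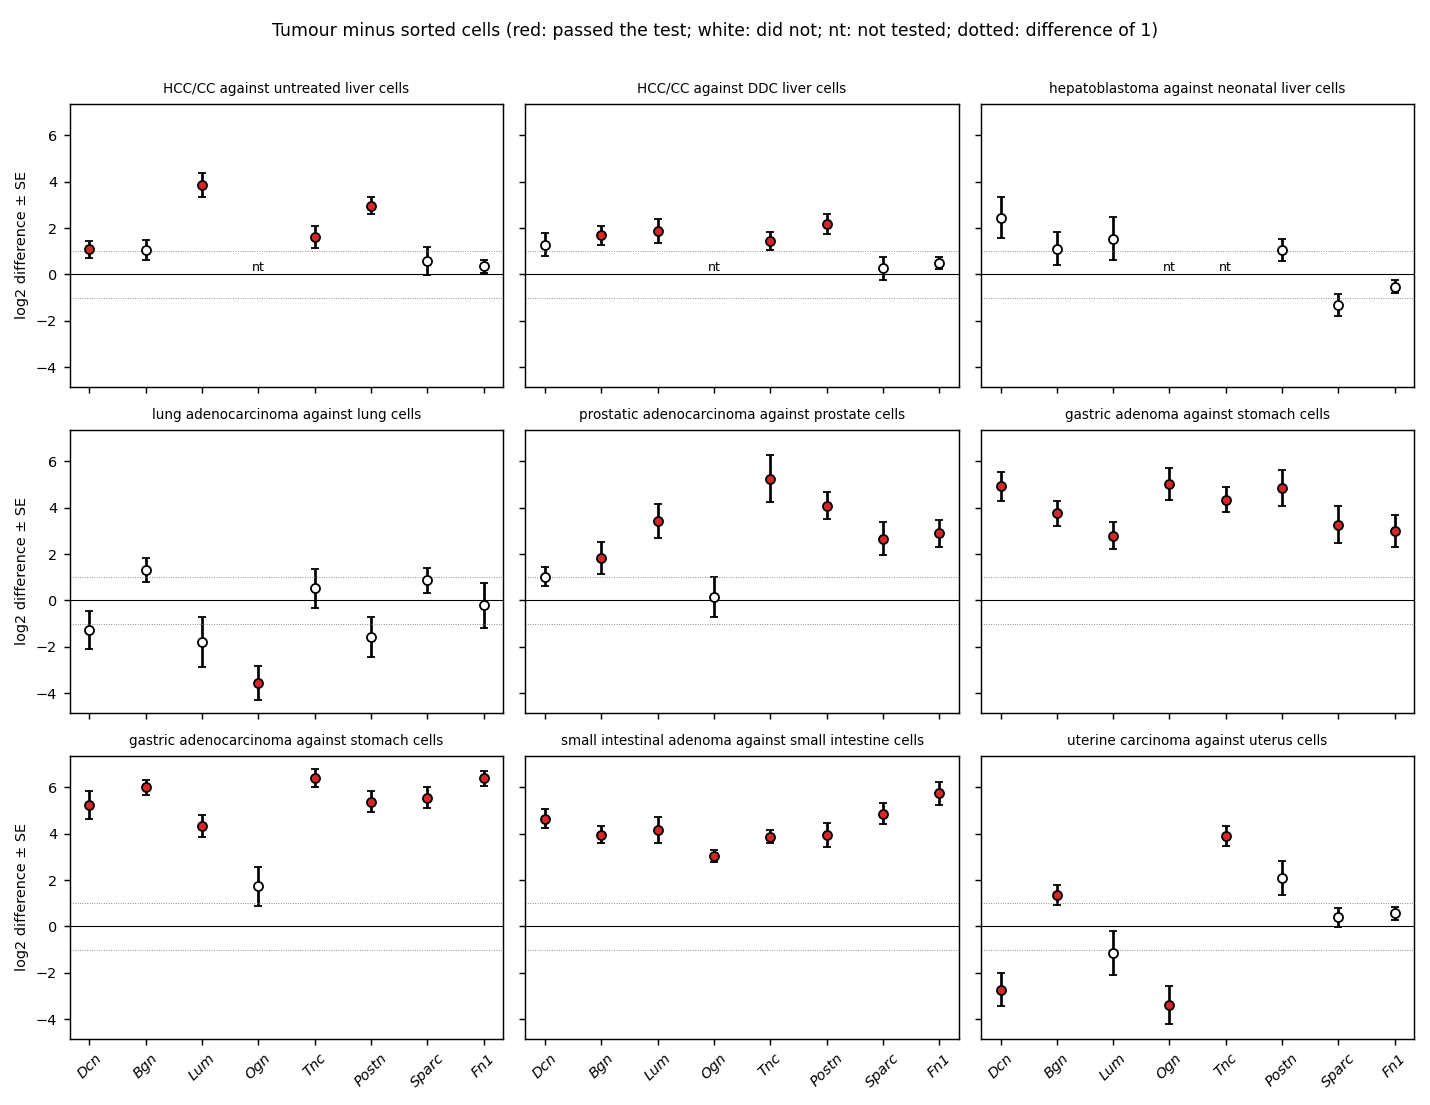
Log2 difference between a tumour and the sorted cells of its organ for the 8 genes, with the SE of the fit as error. Gastric and small intestinal tumours were called higher for every gene but Ogn in gastric adenocarcinoma (1.73), whereas in lung adenocarcinoma 0 of 8 genes was called higher.

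Whether tumour minus sorted cell differences were themselves unequal between organs was tested with an interaction term, each organ against the mean of the other 5. Of 48 such values over the 8 genes and 6 organs, 26 passed. Gastric adenocarcinoma exceeded the other organs in 6 genes, where 11.1% of all genes were above and 10.7% below: Dcn by 4.7 ± 0.8, Fn1 by 4.52, Bgn by 4.1, Sparc by 3.69, Tnc by 3.39 and Postn by 3.09. The last 3 were lost without stomach sample 1 (2.82, 3.01 and 2.85). Lum (2.64, adjusted p = 0.063) was called without uterine carcinoma 1 or lung samples 3 or 4 (2.73 to 2.85), and Ogn (2.31, adjusted p = 0.059) without gastric adenocarcinoma 4, prostatic adenocarcinoma 8, uterine carcinoma 1 or 3, lung sample 3 or prostate sample 3 (2.41 to 2.7). Small intestinal adenoma exceeded the others in 4, where 4.74% of all genes were above and 5.48% below: Dcn by 3.98, Ogn by 3.88, Fn1 by 3.74 and Sparc by 2.85. Sparc was lost without adenoma 1 or 3 or small intestine sample 2 or 3 (2.41 to 2.95) and with the mean of probe sets (2.42), and its second probe set (1.99) was not called.

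Uterine carcinoma was below the other organs in 5 genes, where 8.3% of all genes were below and 3.12% above: Dcn by -4.87, Lum by -3.94, Ogn by -3.84, Sparc by -2.51 and Fn1 by -2.48. Lum (-2.6) and Fn1 (-2.16) were lost without carcinoma 2, and Sparc without 8 different samples in turn, which were uterine carcinoma 1 or 2, uterus samples 2, 3 or 4, lung adenocarcinoma 2, small intestine sample 2 and stomach sample 1 (-1.99 to -2.71), and after quantile normalization (-2.33). Lung adenocarcinoma was below in 6, where 7.86% of all genes were below and 12.8% above: Postn by -5.27 ± 0.84, Lum by -4.72, Ogn by -4.04, Tnc by -3.68, Fn1 by -3.41 and Dcn by -3.14. Tnc was lost without lung adenocarcinoma 2 (-3.69, adjusted p = 0.05) and was not called in its second probe set (-1.24), and Fn1 (-2.54) and Dcn (-1.86) without lung adenocarcinoma 1.

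For HCC/CC, 1 gene was above the other organs and 4 were below, where 11.6% and 8.53% of all genes were. Lum was above by 2.06 ± 0.73, a call lost without liver sample 2 (1.73), and Fn1 (-2.71), Tnc (-2.38), Sparc (-2.29, lost with array weights at -1.39) and Bgn (-1.84) were below. Ogn (1.26, adjusted p = 0.12) was called without prostatic adenocarcinoma 8 (1.36), and so was its second probe set with all samples (1.5). For prostatic adenocarcinoma limma called 0 of 8 (2 at an unadjusted p under 0.05), where 3.48% of all genes were above and 5.89% below, and Tnc (1.98, adjusted p = 0.11) was called without prostatic adenocarcinoma 8 (2.54). The 6 tests share samples, since each sets 1 organ against the others, and the sorted cells enter each value: stomach and small intestine cells were low and uterus and lung cells high in these genes.

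Squamous cell carcinomas of perineum and mouth were set against the mean of 6 internal tumour types (HCC/CC, hepatoblastoma, prostatic, gastric and lung adenocarcinoma and uterine carcinoma). Both Postn (2.22 ± 0.41, adjusted p = 8.8e-06) and Tnc (2.11 ± 0.46, adjusted p = 0.00012) were higher and Fn1 was lower by 1.91 ± 0.33 on the log2 scale (adjusted p = 2.7e-06), where 11.4% of all genes rose and 13.8% fell. Postn was 10.69, 9.99, 10.87 and 10.79 in perineal and 11.1, 10.77 and 11.74 in perioral tumours. Uterine carcinomas (11.37, 9.12 and 11.68) reached these levels, so the groups overlapped. Mean Tnc in gastric (9.46) and prostatic (8.7) adenocarcinoma and uterine carcinoma (8.73) exceeded that of perineal tumours (8.02), with perioral tumours at 9.54. HCC/CC (4.43), hepatoblastoma (4) and lung adenocarcinoma (4.72) lay far under both. Mean Postn split likewise, at 9.94, 9.78 and 10.72 in the first of these types and 7.48, 6.4 and 7.72 in the last. The 3 calls were kept with each sample left out. The single periorbital tumour, outside the fit, had Postn at 7.64, Tnc at 6.47 and Fn1 at 5.83, under all other squamous cell carcinomas. Its actin 3' minus 5' difference was 1.52, against means of 0.61 in perineal and 0.78 in perioral tumours, and its part was not tested. Between perineal and perioral tumours limma called 0 of 8 genes (0 at an unadjusted p under 0.05), where 1.55% of all genes rose and 1.79% fell. Tnc did not overlap there (8.38, 7.58, 8.12 and 7.99 against 9.87, 9.41 and 9.34), with a difference of -1.52 (adjusted p = 0.4), and its second probe set was called (-2.27).

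Metastases did not differ detectably from primaries of the same type. With tumour type in the fit, limma called 0 of 8 genes (0 at an unadjusted p under 0.05), where 0% of all genes rose or fell at this threshold and 1088 had an unadjusted p under 0.05. The largest value was that of Ogn, 1.25 ± 0.63 (adjusted p = 0.55). The 2 lung metastases of liver tumours held Ogn at 8.36 (HCC/CC) and 6.53 (hepatoblastoma), above all 14 HCC/CC primaries (2.84 to 4.68) and both hepatoblastomas (3.6 and 2.96). Lum was low in the same samples, at 4.78 and 3.47, under every primary of its type. In the intestine metastasis of HCC/CC, Ogn was 5.04 and Lum 9.88. The 5 lung epithelial markers had means of 11.53 and 9.55 in the lung metastases, against 4.05 in HCC/CC (samples 3.41 to 5.74), 13.07 in lung adenocarcinoma and 10.41 in lung cells. Their part in the Ogn and Lum levels was not tested. The site of the metastasis was not tested.

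**Figure D5:**
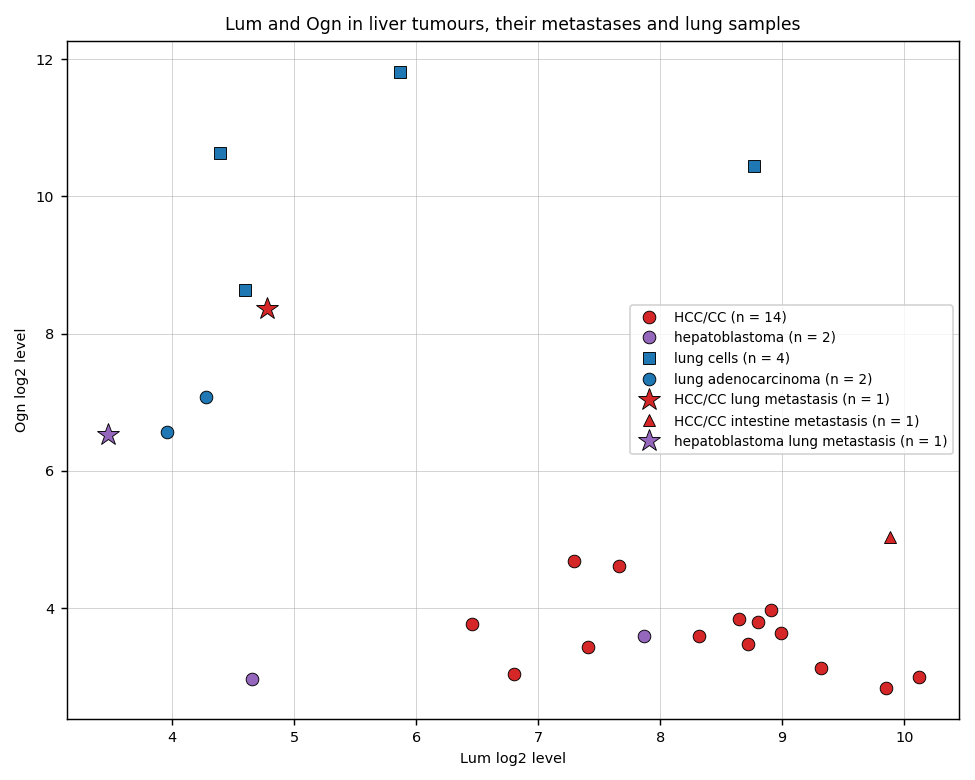
Log2 level of Ogn (y axis) against Lum (x axis), 1 point per sample, in HCC/CC, hepatoblastoma, their metastases to lung and intestine, lung cells and lung adenocarcinoma. The lung metastases (stars; Ogn 8.36 and 6.53) lie above all primary liver tumours in Ogn and under those of their type in Lum.

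Over the means of the 21 groups, all 28 pairs of the 8 genes correlated above 0, from 0.19 (Ogn and Fn1) to 0.89 (Tnc and Postn), with a median of 0.635. The points share arrays and scaling, so these are descriptions. Over the 10 groups of sorted cells alone the range was -0.02 to 0.89, and over the 11 tumour groups -0.74 (Ogn and Fn1) to 0.9 (Tnc and Postn). Ogn and Fn1 thus ran against each other among tumours, with HCC/CC (3.63 and 11.92) and gastric adenoma (8.41 and 8.92) as examples.

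Among 13692 other genes, those whose group means followed each member most closely were named by Pearson's r over the 21 groups. For the proteoglycans they were Col3a1 for Dcn (0.893), Lhfp for Bgn (0.947), Col5a1 and Col1a1 for Lum (0.882 each) and Dpt for Ogn (0.875), of which Col3a1, Col5a1 and Col1a1 encode fibrillar collagens and Dpt a dermal matrix protein. For the other genes they were Olfml2b for Tnc (0.937), Acta2, smooth muscle actin, for Postn (0.917), Col4a1, a basement membrane collagen, for Sparc (0.951), and Serping1, the C1 inhibitor, for Fn1 (0.95).

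Other genes of the matrix were counted in the same comparisons from listed families, and the share of all tested genes called the same way is given with each. Fibrillar and associated collagens rose in 11 of 11 tested genes in uterus cells (15.3% of all genes), with a median of 4.62, led by Col6a3 (6.05) and Col3a1 (5.94), and in 9 of 11 in lung cells (12.8%). They fell in 7 of 11 in kidney cells (17.2%), with 1 higher (16.3%), and in 8 of 11 in small intestine cells (15.1%). In tumours they rose in 9 of 11 genes in gastric adenocarcinoma (17.9%), with a median of 4.13, in 6 of 10 in gastric adenoma (8.07%) and in 8 of 9 in small intestinal adenoma (13.6%). They also rose in 7 of 11 in prostatic adenocarcinoma (12.4%) and 8 of 10 in HCC/CC against untreated cells (17.4%). In uterine carcinoma limma called 0 of 12 and in lung adenocarcinoma 0 of 10 (0 at an unadjusted p under 0.05 in either), where 8.57% and 5.73% of all genes rose and 10.1% and 2.38% fell.

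Other matricellular genes rose in 5 of 13 in gastric adenocarcinoma (17.9% of all genes), led by Ccn2 (8.59), a secreted growth factor binding protein, and Thbs2 (4.97), and in 6 of 13 in prostatic adenocarcinoma (12.4%), with 1 lower (8.69%), led by Smoc2 (4.84) and Ccn2 (4.62). Microfibril and elastic fibre genes rose in 12 of 15 in uterus cells (15.3%), led by Mfap5 (4.66), in 13 of 15 in lung cells (12.8%), led by Mfap4 (4.12), and in 10 of 15 in gastric adenocarcinoma (17.9%), led by Ltbp3 (5.39). Genes of TGF-beta ligands, receptors and targets, a pathway known to induce matrix genes, rose in 10 of 12 in uterus cells (15.3%) and 9 of 11 in gastric adenocarcinoma (17.9%), led there by Ltbp1 (5.07), which is also in the microfibril list. They fell in 7 of 12 in kidney cells (17.2%). Matrix receptors rose in 8 of 17 genes in gastric adenocarcinoma (17.9%), with 1 lower (10.5%), led by the collagen receptor Ddr2 (2.79).

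The other small leucine-rich proteoglycans mostly stayed low, and few were tested. Chad, chondroadherin, fell by 6.88 in gastric adenocarcinoma against stomach cells, the 1 of 5 that passed, where 10.5% of all genes fell. Dcn and Lum neighbour Kera and Epyc in the genome, and Ogn neighbours Omd, Aspn and Ecm2, in 2 clusters of 4 genes each (RefSeq, GRCm38.p6). Kera and Ecm2 had no group mean above 4.02. Epyc was at 5.51 ± 1.46 in prostatic adenocarcinoma (n = 8). Aspn, asporin, was highest in perioral squamous cell carcinoma (8.15 ± 0.5, n = 3), and Omd, osteomodulin, was there too (6.72 ± 0.43), where Ogn was 6.44, 4.26 and 4.25. Aspn and Omd thus had their highest group mean in a group in which Ogn did not.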

How the data were processed

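RNA of 103 mouse samples was measured on Affymetrix mouse expression arrays, and the values used are the log2 levels per probe set as deposited by the authors. Partek 6.6 is named in the submitters' processing notes. How background was corrected and arrays normalized is not given in the sources used here. The precision of array values is limited by their number. The 10 genes and the other gene lists were chosen with earlier results of these data known.

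Probe sets were named from the platform annotation: 104 controls, 551 sets with several genes and 15588 sets missing from the annotation were left out, and 28898 were used, of which 28689 matched a RefSeq gene. Each of 17097 genes was represented by its brightest probe set on average. A gene was tested where its mean in a compared group exceeded the 40th percentile. limma 3.58.1 (lmFit and eBayes with trend, R 4.3.3, with version 1.17.8 of the package for tables) was fitted over all genes, with Benjamini-Hochberg adjustment. Calls needed both an adjusted p under 0.05 and a log2 difference of at least 1. Sorted organs shared 1 fit, tumours another, and each tumour against sorted cells was fitted on its own groups. All 8 members are named. Other genes are named where they led a list or had the highest correlation with a member. Fits were tested on simulated data. Python 3.11.15 with numpy 2.4.6, pandas 2.3.3, scipy 1.17.1 and matplotlib 3.10.9 made summaries and figures.

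The fits were repeated with median centring, quantile normalization, a filter at the 60th percentile, no filter, array weights, the mean of probe sets, no cross-hybridising probe sets, all samples in the fit, and each sample left out.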

Additional observations from a re-analysis of the deposited data

Results flagged for a closer look

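In 4 of 80 gene and group pairs with 4 to 10 samples, 1 sample lay far from the others, and chance flags about 1 in 20 such groups. Dcn was lowest in prostatic adenocarcinoma 2, at 10.35 with the next sample at 11.77, and Ogn was highest in prostatic adenocarcinoma 8, at 10 with the next at 7.18. Large intestinal adenoma 5 was lowest for both Bgn (9.66, next 10.49) and Sparc (10.2, next 11.28).

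The difference between a tumour and the sorted cells of its organ was unequal between organs in 26 of 48 values tested with an interaction term in limma. This difference also depends on the sorted cells: stomach and small intestine cells were low and uterus and lung cells high in these genes. In gastric adenocarcinoma it was above the other organs for Dcn (4.7), Fn1 (4.52), Bgn (4.1), Sparc (3.69), Tnc (3.39) and Postn (3.09). In small intestinal adenoma it was above for Dcn (3.98), Ogn (3.88), Fn1 (3.74) and Sparc (2.85). In uterine carcinoma it was below for Dcn (-4.87), Lum (-3.94), Ogn (-3.84), Sparc (-2.51) and Fn1 (-2.48). In lung adenocarcinoma it was below for Postn (-5.27), Lum (-4.72), Ogn (-4.04), Tnc (-3.68), Fn1 (-3.41) and Dcn (-3.14). In HCC/CC it was above for Lum (2.06) and below for Fn1 (-2.71), Tnc (-2.38), Sparc (-2.29) and Bgn (-1.84). Of all genes, 11.1% were above and 10.7% below in gastric adenocarcinoma, and 4.74% and 5.48% in small intestinal adenoma. These shares were 3.12% and 8.3% in uterine carcinoma, 12.8% and 7.86% in lung adenocarcinoma and 11.6% and 8.53% in HCC/CC. Calls lost when a sample was left out were Sparc, Tnc and Postn in gastric, Sparc in small intestinal and Lum in HCC/CC tumours. In uterine carcinoma they were Sparc, Lum and Fn1, and in lung adenocarcinoma Tnc, Fn1 and Dcn.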

How the results depend on the processing

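Over 1759 values of members under alternatives other than leaving samples out, 937 were called with the settings of the report. Of these, 915 kept the call and 22 lost it. A call was gained by 42 other values, and 0 reversed. The same 129 calls recur in most settings, so these values are not independent. Leaving out cross-hybridising probe sets removed no probe set of a member, and the filters do not alter a difference, so few changes were possible there. With array weights the number of members called went from 1 to 0 for DDC against untreated liver cells, from 1 to 2 for neonatal against untreated liver cells, DDC against neonatal liver cells and lung adenocarcinoma against lung cells, from 2 to 6 for large against small intestinal adenoma, from 0 to 3 for perineal against perioral carcinoma and for the prostatic interaction, and from 4 to 7 for the small intestinal interaction. It was 2 for neonatal against untreated liver cells with quantile normalization or the mean of probe sets, 1 for perineal against perioral carcinoma with the mean of probe sets, and 1 for hepatoblastoma against neonatal liver cells with all samples in the fit. The comparisons named for array weights had the largest relative changes in member count, and in them the number called over all genes rose. It went from 2372 to 3022 for DDC and 3434 to 4643 for neonatal against untreated liver cells. For DDC against neonatal cells it went from 1363 to 1995, for lung adenocarcinoma from 908 to 2461. Large against small intestinal adenoma went from 1405 to 2052, perineal against perioral carcinoma from 357 to 1155. The prostatic interaction went from 1233 to 2124, the small intestinal from 1345 to 2567. Among the comparisons not named, the number over all genes rose in some and fell in others. For hepatoblastoma it fell from 658 to 74 against HCC/CC and from 1369 to 500 against neonatal liver cells. For gastric adenoma against stomach cells it fell from 1220 to 730. The cause was not tested.

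With each sample left out in turn, the number called ranged from 5 to 8 for liver, 2 to 4 for prostate, 4 to 6 for salivary gland, 1 to 6 for stomach and 7 to 8 for uterus cells, and stayed at 6 for kidney and lung and 7 for small intestine cells. Calls over all genes were not counted in these fits, so a change over all genes cannot be told apart from one in the members alone. The number of members called was 1 to 2 for neonatal and 1 for DDC against untreated liver cells, and 0 to 2 for DDC against neonatal cells. For tumours against sorted cells it was 3 to 5 for HCC/CC against untreated and 4 to 5 against DDC cells, 0 to 5 for hepatoblastoma, 4 to 7 for prostatic adenocarcinoma, 6 to 8 for gastric adenoma, 7 for gastric adenocarcinoma, 8 for small intestinal adenoma, 2 to 4 for uterine carcinoma and 0 to 3 for lung adenocarcinoma. Between tumours it was 5 for gastric adenocarcinoma against adenoma, 2 to 3 for large against small intestinal adenoma, 0 to 3 for hepatoblastoma against HCC/CC, 3 for squamous cell carcinomas against internal types, and 0 for perineal against perioral carcinoma and for metastases. For the interactions it was 4 to 6 for HCC/CC, 0 to 1 for prostatic, 3 to 8 for gastric, 3 to 4 for small intestinal, 2 to 5 for uterine and 4 to 6 for lung tumours.

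Quantile normalization moved the share of called genes that were higher from 71.9% to 58.5% for neonatal and 74.7% to 59.5% for DDC against untreated liver cells, and in tumours against sorted cells from 73.6% to 59.2% for HCC/CC (untreated), 58.8% to 45.3% for prostatic adenocarcinoma, 72.5% to 49.7% for gastric adenoma, 63% to 45.7% for gastric adenocarcinoma, 61.7% to 50.1% for small intestinal adenoma and 70.7% to 56.6% for lung adenocarcinoma. Median centring moved it from 57.7% to 68.5% for the HCC/CC interaction. No paired analysis was possible because the labels give the groups no shared replicate numbers. Levels near array background bound the differences of Tnc and Ogn in liver cells.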
